A study of Mus musculus with 12 samples.

Results

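The genes described here encode ligands, receptors and SMAD proteins of the transforming growth factor-beta (TGF-beta) family. They were taken as the rows of the expression table whose symbol was Tgfb1, Tgfb2, Tgfb3, Inhba, Tgfbr1, Tgfbr2, Tgfbr3, Smad3, Smad6 or Smad7, which gave 10 of 55335 genes. All 10 passed the filter on low values, which asked for 1 FPKM or more in 3 or more of the 12 libraries, and 12622 genes of the table passed it. FPKM counts the sequenced fragments of a gene relative to its length and to the size of the library, so levels can be set side by side between genes.

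RNA was sequenced from bone marrow-derived macrophages (BMDMs) of wild-type C57BL/6 mice and of Nlrp3-/- mice, which lack the sensor protein of the NLRP3 inflammasome. Cells of each genotype were left without treatment or were primed with lipopolysaccharide (LPS) and then given ATP, a treatment that activates this inflammasome, in 4 groups of 3 libraries. The labels give 4 h of LPS and 30 min of ATP, whereas the methods text gives LPS at 200 ng/ml for 12 h and ATP at 3 mM for 2 h, so the exact times are uncertain. Donors were 8 weeks old, and the marrow had been cultured with macrophage colony-stimulating factor at 40 ng/ml for 7 days. Wild-type and Nlrp3-/- mice came from different suppliers, and no source says that they were littermates. The methods speak of independent replicates in general but name no mice or cultures for the 3 libraries of a group, so the p-values measure only the spread between these libraries, which may be technical. The libraries of a group correlated at 0.990 to 0.993 on the log2(FPKM + 1) scale, and libraries of different groups at 0.815 to 0.964.

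The deleted gene and the stimulus were checked against the labels. Nlrp3 was at 9.24, 9.71 and 10.1 FPKM in the untreated wild-type libraries and at 32.1, 33.0 and 33.6 FPKM after LPS and ATP. It was listed at 0 in all 6 Nlrp3-/- libraries. Il1b, a cytokine gene induced by LPS, was below 2 FPKM in every untreated library, between 1366 and 1404 FPKM in stimulated wild-type cells and between 994 and 996 FPKM in stimulated Nlrp3-/- cells. The sex of the donors went with the genotype. Xist, the RNA that silences an X chromosome in female cells, did not exceed 0.0416 FPKM in wild-type cells and ranged from 32.8 to 56.3 FPKM in Nlrp3-/- cells. Of genes on the Y chromosome, Uty, Kdm5d, Eif2s3y and Ddx3y had values above 0 in each wild-type library and 0 in each Nlrp3-/- library. Nnt, a gene that carries a deletion in the C57BL/6J substrain, was at 0.670 to 1.47 FPKM in Nlrp3-/- cells and at 4.09 to 10.3 FPKM in wild-type cells. In every comparison of genotypes given here, the Nlrp3 deletion, the sex of the donors and the breeding background cannot be told apart.

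TGF-beta ligands are secreted in a latent form, and once released they bring together type II and type I serine/threonine kinase receptors, which phosphorylate SMAD2 and SMAD3. These SMADs enter the nucleus with SMAD4 and regulate genes that include those of the inhibitory SMADs, SMAD6 and SMAD7, while activin, a dimer of inhibin beta subunits, feeds into the same SMADs through its own receptors. In macrophages TGF-beta is known mainly as a restraint on inflammatory activation and as a signal in wound repair and matrix formation, and activin A as a product of LPS-stimulated myeloid cells.

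Promoter sequences from RefSeq (build GRCm38.p6) were matched by symbol, and 7 of the 10 genes had an entry that was used, with 8 entries in all, since Tgfbr1 had 2. The 300 bases from 250 before to 50 after each start were searched on both strands for a SMAD palindrome (GTCTAGAC), a CAGA box (CAGACA), an AP-1 element (TGANTCA), a CRE (TGACGTCA) and a kappaB core (GGANTTTCC). The letters AGAC and GTCT occur in both the palindrome and the CAGA box, but no entry held more than 1 match. Among all 32851 promoters of the table, the palindrome was found in 0.213%, the CAGA box in 21.0%, the AP-1 element in 7.81%, the CRE in 1.79% and the kappaB core in 1.25%. The stretches before the start are shown for the member with the largest rise under LPS and ATP (Inhba, chr13:16011601-16011850, plus strand), for the member with the largest fall (Tgfbr2, chr9:116175364-116175613, minus strand) and for a pair of SMAD genes that moved in opposite directions (Smad3, chr9:63757995-63758244, and Smad6, chr9:64022056-64022309, both minus strand). Capitals mark a motif match.
Inhba: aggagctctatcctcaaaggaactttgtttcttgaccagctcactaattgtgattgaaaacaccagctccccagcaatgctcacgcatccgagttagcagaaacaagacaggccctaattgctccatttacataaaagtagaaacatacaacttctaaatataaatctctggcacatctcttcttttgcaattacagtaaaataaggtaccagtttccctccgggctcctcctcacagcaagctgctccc
Tgfbr2: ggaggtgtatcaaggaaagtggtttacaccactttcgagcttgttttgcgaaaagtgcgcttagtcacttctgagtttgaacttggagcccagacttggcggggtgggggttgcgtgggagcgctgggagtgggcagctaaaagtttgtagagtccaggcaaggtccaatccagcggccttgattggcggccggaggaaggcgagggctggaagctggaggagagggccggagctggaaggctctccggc
Smad3: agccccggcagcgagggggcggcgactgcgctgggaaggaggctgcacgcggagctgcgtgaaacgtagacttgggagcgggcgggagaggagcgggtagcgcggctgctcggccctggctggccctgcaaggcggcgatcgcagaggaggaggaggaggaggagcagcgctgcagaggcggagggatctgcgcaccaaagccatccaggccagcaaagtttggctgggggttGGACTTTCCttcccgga
Smad6: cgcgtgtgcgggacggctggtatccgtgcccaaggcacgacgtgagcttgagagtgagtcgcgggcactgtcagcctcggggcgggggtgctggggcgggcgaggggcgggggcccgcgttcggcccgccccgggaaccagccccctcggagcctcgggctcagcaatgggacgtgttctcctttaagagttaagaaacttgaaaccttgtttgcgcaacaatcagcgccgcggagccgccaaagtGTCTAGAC
The Smad3 stretch holds the kappaB core GGACTTTCC beginning 17 bases before the start. The Smad6 stretch ends in the SMAD palindrome, which begins 4 bases before the start and runs across it. The Inhba and Tgfbr2 stretches hold none of the 5 motifs, although a kappaB core lies 29 bases after the Tgfbr2 start. Of the promoters not shown, Tgfb2 had a CAGA box 204 bases before its start, the second Tgfbr1 entry had a CAGA box 203 bases before its start, and Tgfb1 and the other Tgfbr1 entry had no match. A match describes letters only, and binding of any factor was not measured here.

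LPS and ATP raised Inhba 108-fold in mean FPKM in wild-type cells, raised Smad6 5.27-fold and lowered Tgfbr2, Tgfb3 and Smad3 to between 0.183 and 0.279 of their untreated levels. In Nlrp3-/- cells Inhba rose 9.34-fold and Smad6 2.35-fold, and Tgfbr2, Tgfb3 and Smad3 fell to between 0.224 and 0.322. Without stimulation, Nlrp3-/- cells held 3.39 to 6.62 times the wild-type level of Smad3, Tgfbr3, Smad6, Tgfb3, Tgfb2 and Inhba, of which Smad6 was under the fold limit on the log2(FPKM + 1) scale. After LPS and ATP the Nlrp3-/- cells were called higher in Tgfb2, Tgfb3, Tgfbr3, Smad3 and Smad7 and held 1.77 times the wild-type level of Smad6, whereas Inhba was at 0.575 of the wild-type level. The Smad7 call ended without replicate 2 of the stimulated wild-type libraries (a log2 difference of 0.76) and with scaling by median ratios between libraries. The plot of FPKM by library shows all 10 genes.

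**Figure D1:**
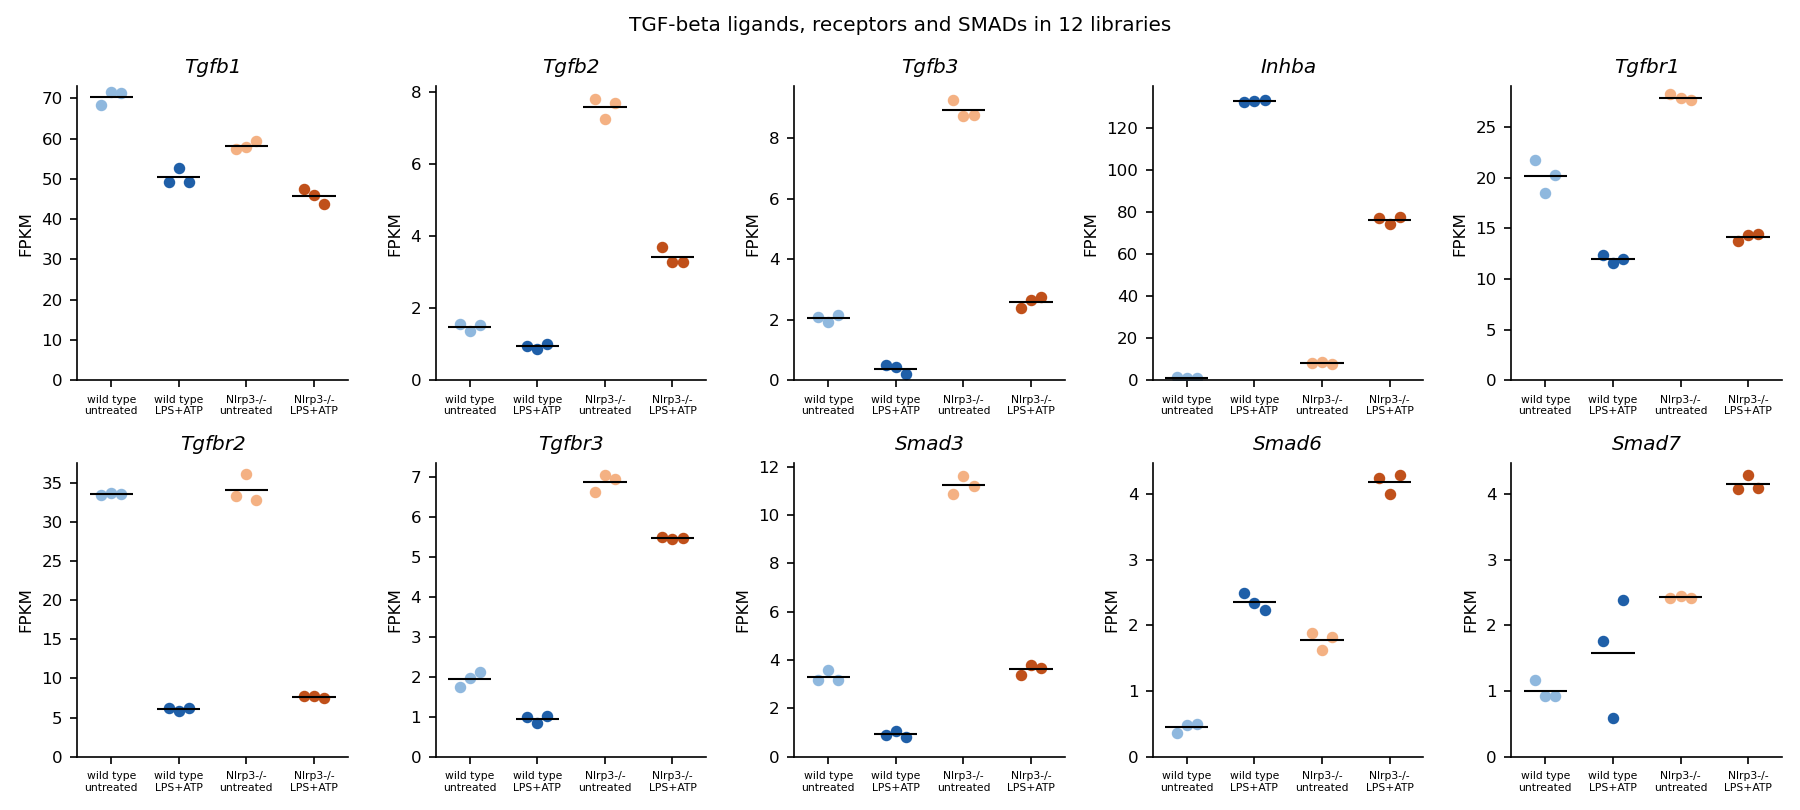
FPKM (linear axes from 0) of the 10 genes in each of the 12 libraries, by genotype and treatment; each point is a library and each bar the mean of 3. Inhba lies between 132 and 133 FPKM in stimulated wild-type libraries and at 1.16 to 1.31 FPKM in untreated ones, and the Smad7 points of stimulated wild-type cells spread from 0.590 to 2.38 FPKM.

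A gene was called where limma gave a Benjamini-Hochberg adjusted p under 0.05 over all tested genes and the log2 fold change was 1 or more in size. Because 1 was added to each FPKM before taking logs, fitted changes of genes at low FPKM are smaller than their FPKM ratios. For LPS and ATP in wild-type cells, 2 of the 10 genes were called higher and 3 lower, beside 8.25% and 11.2% of all tested genes. By the adjusted p alone 2 were higher and 7 lower, beside 23.3% and 53.1%, and the median log2 fold change of the 10 was -0.53, beside -0.25 for all tested genes. In Nlrp3-/- cells LPS and ATP gave 1 called higher and 3 lower, beside 6.64% and 8.21%. The adjusted p alone gave 3 higher and 7 lower there, beside 20.6% and 53.8%, with a median of -0.64, beside -0.24. Between untreated genotypes 5 of the 10 were called higher in Nlrp3-/- cells and 0 lower, beside 6.02% and 0.689%. There the adjusted p alone gave 8 higher and 1 lower, beside 33.3% and 14.5%, and the median was 1.18, beside 0.09. Between stimulated genotypes 5 were called higher and 0 lower, beside 4.48% and 0.570%, and by the adjusted p alone 8 were higher and 2 lower, beside 35.9% and 12.6%, with a median of 0.85, beside 0.11. The interaction asks whether the change with LPS and ATP differed between genotypes: 0 of the 10 were called higher and 1 lower, beside 0.721% and 1.43%, and by the adjusted p alone 2 were higher and 4 lower, beside 14.7% and 13.0%. These comparisons share groups of libraries, so a gene that is high or low in a shared group moves in more than 1 of them.

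**Figure D2:**
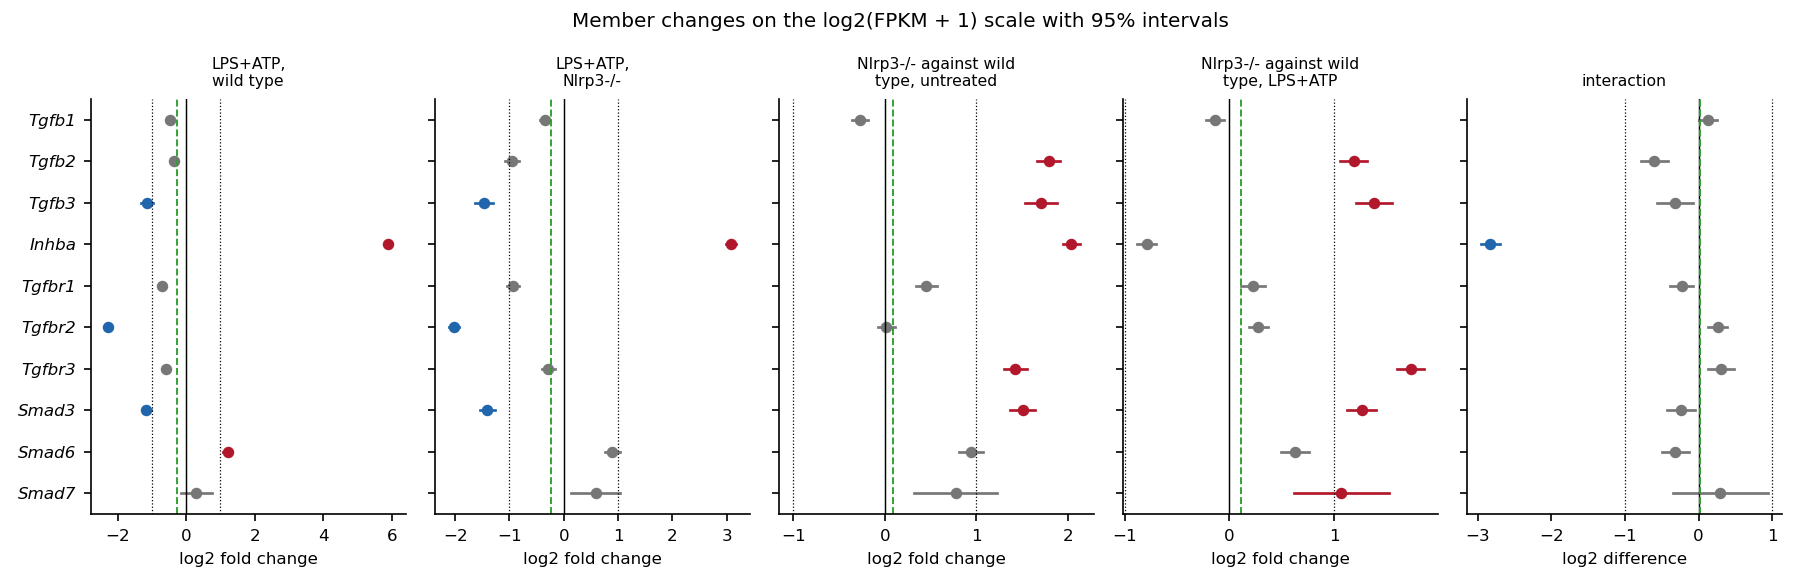
Change of each gene in the 5 comparisons on the log2(FPKM + 1) scale (points, with 95% intervals as bars); red and blue mark genes called higher and lower, dotted lines a change of 1, and the green dashed line the median of all tested genes. Inhba sits at 5.90 in wild-type cells, at 3.08 in Nlrp3-/- cells and at -2.83 for the interaction.

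The level of all genes depended on scaling. Median-ratio scaling between libraries, in place of FPKM as deposited, moved the median log2 change of all tested genes by 0.25 and 0.23 for LPS and ATP in wild-type and Nlrp3-/- cells. The genotype comparisons moved by -0.11 without and -0.14 with stimulation. Changes of that size or smaller are given below with their rescaled value.

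The cell type markers set the scene for the genotype comparisons and for the changes with LPS and ATP. All 8 macrophage markers were tested, and their summed FPKM lay between 19974 and 21159 in untreated wild-type, 11793 and 11862 in stimulated wild-type, 19071 and 19319 in untreated Nlrp3-/- and 11118 and 11366 in stimulated Nlrp3-/- libraries, with Lyz2 as the most abundant gene, at 87.2% of the summed list, and no marker at 0. Single markers differed from the sum: Fcgr1 and Cd14 were called higher with LPS and ATP in both genotypes, and between genotypes limma called 0 of the 8, while by the adjusted p alone 5 were lower in Nlrp3-/- cells without and 4 with stimulation (beside 14.5% and 12.6% of all tested genes) and 0 were higher. The 8 fibroblast or stromal markers, all tested and led by Col1a1, summed to 163, 168 and 166 FPKM in untreated wild-type cells, to 191, 194 and 193 after LPS and ATP, to 1199, 1206 and 1189 in untreated Nlrp3-/- cells and to 934, 928 and 944 after LPS and ATP. Single markers of this list went both ways with LPS and ATP, and limma called 0 of the 8. By the adjusted p alone 6 were higher and 1, Col3a1, lower in wild-type cells (beside 23.3% and 53.1% of all tested genes). In Nlrp3-/- cells Pdgfra, Pdgfrb, Dcn and Thy1 were higher by that rule and Col1a1, Col1a2 and Col3a1 lower (beside 20.6% and 53.8%). The fibroblast sum was 7.24 and 4.86 times higher in Nlrp3-/- cells without and with stimulation, and the groups did not overlap. Of the 8 markers, 6 were called higher in each of these comparisons, beside 6.02% and 4.48% of all tested genes. Thy1 (at most 0.285 FPKM in wild-type libraries) and Lum (at most 0.744 FPKM) passed the filter on low values only through the Nlrp3-/- libraries. Their genotype results, including the call of Thy1 counted with stimulation, are no more than a description. The 8 neutrophil markers, 7 of them tested and led by S100a9, summed to 334, 357 and 370 FPKM in untreated wild-type, 109, 127 and 114 in stimulated wild-type, 1842, 1791 and 1794 in untreated Nlrp3-/- and 493, 489 and 520 in stimulated Nlrp3-/- libraries. Of the 7 tested neutrophil markers, 7 were called higher in Nlrp3-/- cells without and 4 with stimulation, beside 6.02% and 4.48% of all tested genes. By the adjusted p alone 7 were higher in each state, beside 33.3% and 35.9%. Ly6g, which was not tested, stayed below 1 FPKM throughout and at 0 in some wild-type libraries, and it overlapped between stimulated genotypes. The 4 megakaryocyte or platelet markers, led by Ppbp, summed to 41.9, 36.9 and 36.4 FPKM in untreated wild-type, 96.2, 95.9 and 95.0 in stimulated wild-type, 130, 122 and 125 in untreated Nlrp3-/- and 42.9, 40.2 and 42.0 in stimulated Nlrp3-/- libraries. This list rose with LPS and ATP in wild-type cells and fell in Nlrp3-/- cells. Endothelial markers, led by Cdh5 with 3 of 5 tested, summed to 4.28, 5.13 and 5.05 FPKM, to 5.02, 5.35 and 5.08, to 12.6, 11.4 and 10.8, and to 8.51, 9.05 and 8.52 in the same order of groups. Mast cell or basophil markers, led by Mcpt8 with 2 of 4 tested, summed to 1.94, 1.47 and 1.58 FPKM, to 0.515, 0.476 and 0.412, to 10.4, 9.01 and 9.002, and to 4.16, 3.60 and 4.19, with Fcer1a and Ms4a2 below 1 FPKM in every library. Both of these sums were higher in Nlrp3-/- cells in either state, although Kdr was lower there without stimulation (by the adjusted p alone) and the stimulated mast cell difference rested on Mcpt8, since Cpa3 overlapped. The 4 lymphocyte markers, none of them tested, summed to 0.260 to 0.670 FPKM in untreated wild-type and 1.51 to 1.91 FPKM in untreated Nlrp3-/- libraries, and to 0.280 to 0.404 and 0.770 to 1.16 FPKM after LPS and ATP, so this sum too was higher in Nlrp3-/- cells. With LPS and ATP the neutrophil sum fell to 0.330 of its untreated level in wild-type and to 0.277 in Nlrp3-/- cells. Of its 7 tested markers, 5 and 6 were called lower, beside 11.2% and 8.21% of all tested genes. Tgfbr2, Tgfb3 and Smad3 fell in the same stimulated libraries. In bulk RNA, fewer cells of a type and less RNA per cell cannot be told apart. The part that other cell types had in the genotype differences and in the changes with LPS and ATP was not tested.

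**Figure D3:**
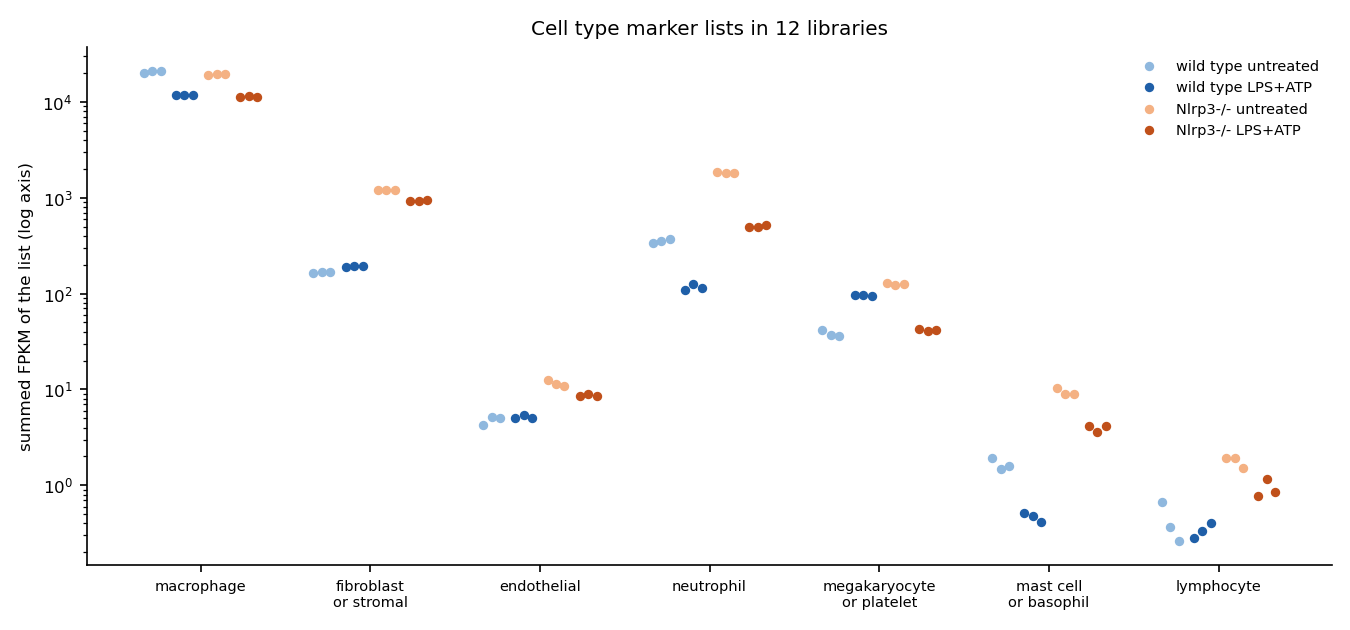
Summed FPKM (log axis) of 7 marker lists in each of the 12 libraries, coloured by group. The fibroblast or stromal list lies at 163 to 194 FPKM in the wild-type libraries and at 928 to 1206 FPKM in the Nlrp3-/- ones, while the macrophage list stays at 11118 FPKM or more in all libraries.

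Of the ligands, Inhba (ENSMUSG00000041324), which encodes the beta A subunit of activin and inhibin, moved most. Inhba was at 1.31, 1.23 and 1.16 FPKM in the untreated wild-type libraries and at 132, 133 and 133 FPKM after LPS and ATP. In Nlrp3-/- cells it was at 8.29, 8.50 and 7.73 FPKM without treatment and at 77.0, 74.3 and 77.8 FPKM after LPS and ATP. No groups overlapped: the untreated Nlrp3-/- libraries were above the untreated wild-type ones, and the order was the opposite after stimulation. The log2 fold change with LPS and ATP was 5.90 in wild-type cells (SE 0.0406, adjusted p = 6.3e-16) and 3.08 in Nlrp3-/- cells (adjusted p = 1.0e-13). Between genotypes it was 2.04 without treatment (adjusted p = 1.7e-11) and -0.79 with LPS and ATP (adjusted p = 4.1e-08), the latter under the fold limit. The interaction term was -2.83 (95% interval -2.95 to -2.70, adjusted p = 3.5e-10), so the rise was smaller in Nlrp3-/- cells, which began from a higher level. Of the 10 genes, Inhba alone was called for the interaction.

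Tgfb1 (ENSMUSG00000002603), the main TGF-beta isoform of leukocytes, was the most abundant TGF-beta ligand in every library. Its levels were 68.4, 71.7 and 71.2 FPKM in untreated and 49.2, 52.8 and 49.3 FPKM in stimulated wild-type cells, and 57.5, 58.0 and 59.3 FPKM in untreated and 47.5, 46.0 and 43.8 FPKM in stimulated Nlrp3-/- cells. The untreated wild-type libraries were the highest and the stimulated Nlrp3-/- libraries the lowest, with no overlap between any groups. All changes were under the fold limit: -0.47 with LPS and ATP in wild-type cells (adjusted p = 5.7e-07), -0.34 in Nlrp3-/- cells (adjusted p = 1.1e-05), and -0.27 and -0.14 between genotypes without and with stimulation (-0.41 and -0.31 with median-ratio scaling). The adjusted p of the -0.14 was 0.014, in a range of 7.1e-05 to 0.060 over 16 settings, and it did not pass without replicate 2 of the stimulated wild-type (-0.10) or replicate 3 of the stimulated Nlrp3-/- libraries (-0.11). With median-ratio scaling the changes with LPS and ATP were -0.16 in wild-type and -0.06 in Nlrp3-/- cells, the second with an adjusted p of 0.19 in a range of 9.8e-06 to 0.19 over 16 settings.

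Tgfb2 (ENSMUSG00000039239), an isoform best known from mesenchymal and epithelial tissues, was low in wild-type cells. Tgfb2 measured 1.55, 1.38 and 1.53 FPKM without treatment and 0.948, 0.856 and 1.01 FPKM after LPS and ATP in wild-type cells, and 7.82, 7.26 and 7.70 FPKM and 3.69, 3.27 and 3.28 FPKM in Nlrp3-/- cells. Every Nlrp3-/- library was above every wild-type library, stimulated or not. The genotype difference was 1.79 on the log2 scale without treatment (SE 0.0578, adjusted p = 6.8e-10) and 1.19 with it (adjusted p = 2.7e-08). LPS and ATP lowered Tgfb2 by the adjusted p but under the fold limit, with -0.36 in wild-type cells (adjusted p = 0.00015; -0.19 with median-ratio scaling) and -0.96 in Nlrp3-/- cells (adjusted p = 4.5e-08). The latter passed the limit without replicate 1 of the stimulated Nlrp3-/- libraries (-1.01) and with a pseudocount of 0.1 (-1.13). The interaction was -0.60 (adjusted p = 0.00028), under the fold limit, so the fall was larger in Nlrp3-/- cells on this scale, and the adjusted p ranged from 0.00032 to 0.0083 over 16 settings.

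Tgfb3 (ENSMUSG00000021253), the remaining isoform, followed a similar order. It stood at 2.08, 1.91 and 2.15 FPKM in untreated wild-type cells, at 0.486, 0.449 and 0.210 FPKM after LPS and ATP, at 9.27, 8.74 and 8.76 FPKM in untreated Nlrp3-/- cells and at 2.37, 2.65 and 2.75 FPKM after LPS and ATP. The stimulated wild-type libraries were the lowest and the untreated Nlrp3-/- libraries the highest, and no groups overlapped. Tgfb3 fell with LPS and ATP by log2 fold changes of -1.15 in wild-type cells (adjusted p = 1.1e-07) and -1.47 in Nlrp3-/- cells (adjusted p = 1.6e-08), and was higher in Nlrp3-/- cells by 1.70 without (adjusted p = 1.3e-08) and 1.38 with stimulation (adjusted p = 9.1e-08). The interaction of -0.32 did not pass (adjusted p = 0.053), but did without replicate 3 of the stimulated wild-type libraries (-0.41), where the adjusted p was 0.0060 in a range of 0.0060 to 0.26 over 16 settings. Its sign turned to 0.46 with a pseudocount of 0.1, and the ratio of mean FPKM was 0.186 in wild-type and 0.290 in Nlrp3-/- cells.

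Summed over the isoforms on the deposited FPKM scale, the TGF-beta ligand level was close between genotypes while its makeup differed. The sum lay between 72.0 and 75.0 FPKM in untreated wild-type and between 74.0 and 75.8 FPKM in untreated Nlrp3-/- libraries, and after LPS and ATP between 50.5 and 54.1 FPKM and between 49.8 and 53.6 FPKM. The genotypes overlapped in this sum in both states on that scale, but the sum was not rescaled, and median-ratio scaling lowered Tgfb1, its largest part, in Nlrp3-/- relative to wild-type cells (from -0.27 to -0.41 and from -0.14 to -0.31). Tgfb1 made up 95.0 to 95.6% of the sum in untreated wild-type cells but 77.1 to 78.4% in untreated Nlrp3-/- cells, and 97.2 to 97.6% and 87.9 to 88.7% after LPS and ATP. Tgfb3 supplied 11.6 to 12.4% and Tgfb2 9.80 to 10.5% of it in untreated Nlrp3-/- cells, against 2.55 to 2.88% and 1.84 to 2.15% in untreated wild-type cells. Inhba exceeded Tgfb1 only in the stimulated libraries, at 2.52 to 2.71 times its FPKM in wild-type and 1.61 to 1.78 times in Nlrp3-/- cells. These shares are descriptions of FPKM values and were not tested. The fibroblast and neutrophil lists were higher in the same Nlrp3-/- libraries as Tgfb2 and Tgfb3, and their part in these levels was not tested.

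**Figure D4:**
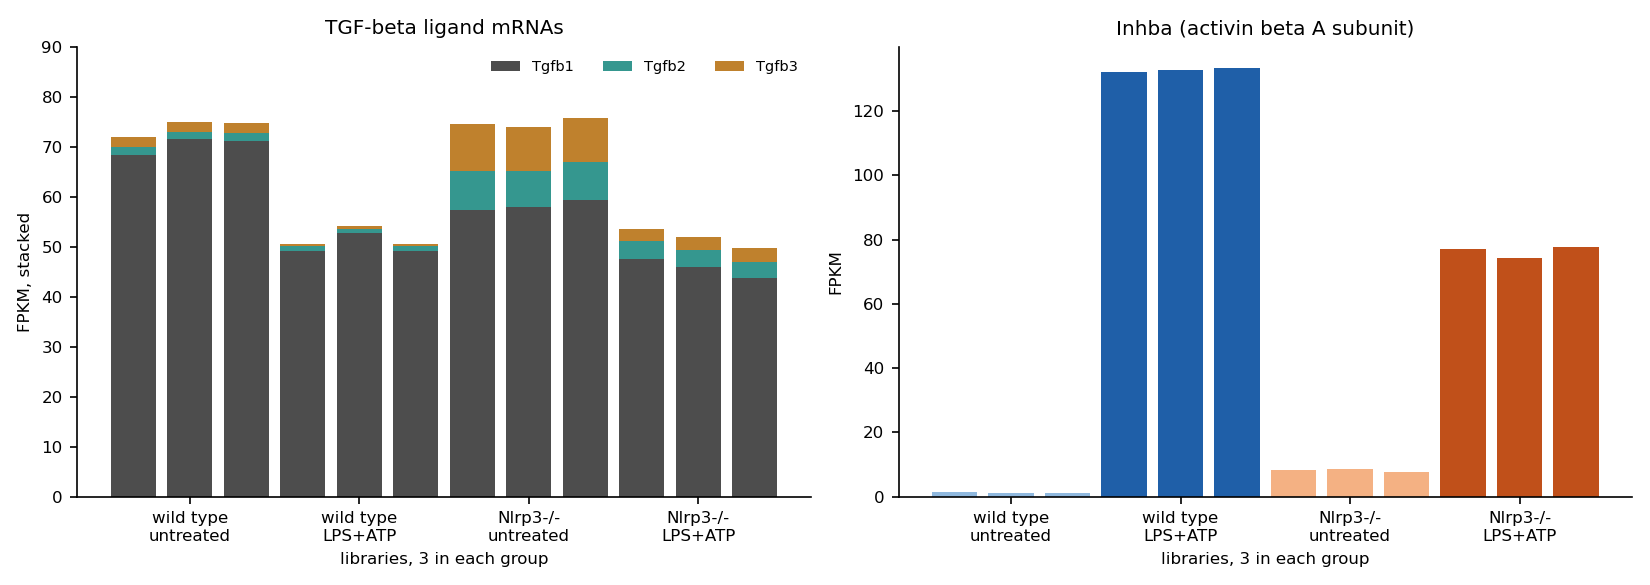
FPKM of the TGF-beta isoforms, stacked (left), and of Inhba (right) in each of the 12 libraries; axes start at 0. The stacked sum is 72.0 to 75.8 FPKM in untreated and 49.8 to 54.1 FPKM in stimulated libraries of both genotypes, with larger Tgfb2 and Tgfb3 segments in the Nlrp3-/- libraries.

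Among the receptors, Tgfbr2 (ENSMUSG00000032440), the type II receptor that binds TGF-beta ligands directly, showed the largest change with LPS and ATP. Tgfbr2 was at 33.4, 33.7 and 33.6 FPKM in untreated wild-type cells and at 6.28, 5.84 and 6.28 FPKM after LPS and ATP, and at 33.3, 36.1 and 32.7 FPKM and 7.72, 7.70 and 7.48 FPKM in Nlrp3-/- cells. All stimulated libraries were far below all untreated ones; the untreated genotypes overlapped, and the stimulated Nlrp3-/- libraries were above the stimulated wild-type ones. The log2 fold change was -2.28 in wild-type cells (SE 0.0422, adjusted p = 1.3e-12) and -2.02 in Nlrp3-/- cells (adjusted p = 4.3e-12), with an interaction of 0.26 (adjusted p = 0.0082). The difference between stimulated genotypes was 0.28 (adjusted p = 0.00024), and 0.12 with median-ratio scaling. Between untreated genotypes the difference was 0.02 (95% interval -0.07 to 0.11, adjusted p = 0.75), and it turned to -0.12 with median-ratio scaling, where the adjusted p was 0.048 in a range of 0.048 to 0.84 over 16 settings. Without replicate 2 of the untreated Nlrp3-/- libraries it was -0.023.

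Tgfbr1 (ENSMUSG00000007613), the type I receptor kinase that phosphorylates SMAD2 and SMAD3, changed less than Tgfbr2 with LPS and ATP, but differed more between untreated genotypes. It was at 21.7, 18.5 and 20.3 FPKM in untreated and 12.4, 11.5 and 12.02 FPKM in stimulated wild-type cells, and at 28.3, 27.9 and 27.7 FPKM in untreated and 13.8, 14.3 and 14.4 FPKM in stimulated Nlrp3-/- cells. Stimulated libraries were below untreated ones in both genotypes, and Nlrp3-/- libraries were above wild-type ones in both states. The log2 fold changes with LPS and ATP, -0.70 in wild-type (adjusted p = 1.9e-07) and -0.93 in Nlrp3-/- cells (adjusted p = 2.1e-08), were under the fold limit. The genotype differences were 0.45 without stimulation (adjusted p = 2.2e-05) and 0.22 with it (adjusted p = 0.0040). The latter was 0.06 with median-ratio scaling, where the adjusted p was 0.37 in a range of 0.0010 to 0.37 over 16 settings. The interaction was -0.23, with an adjusted p of 0.036 in a range of 0.0072 to 0.081 over 16 settings, so it did not pass in all of them. The FPKM of Tgfbr1 was 0.550 to 0.650 times that of Tgfbr2 in untreated wild-type and 0.773 to 0.849 times in untreated Nlrp3-/- libraries. It reached 1.92 to 1.98 times and 1.78 to 1.93 times after LPS and ATP, so Tgfbr1 passed Tgfbr2 in all 6 stimulated libraries.

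Tgfbr3 (ENSMUSG00000029287) encodes betaglycan, a co-receptor that presents ligands, TGF-beta2 above all, to the type II receptor. Tgfbr3 was at 1.75, 1.96 and 2.12 FPKM in untreated and at 0.992, 0.848 and 1.02 FPKM in stimulated wild-type cells, and at 6.63, 7.06 and 6.95 FPKM in untreated and at 5.50, 5.45 and 5.48 FPKM in stimulated Nlrp3-/- cells. All Nlrp3-/- libraries lay above all wild-type libraries, as for Tgfb2. The genotype difference was 1.42 without treatment (SE 0.0567, adjusted p = 3.9e-09) and 1.73 with LPS and ATP (adjusted p = 1.2e-09). With LPS and ATP its changes were under the fold limit, at -0.59 in wild-type (adjusted p = 2.1e-06) and -0.28 in Nlrp3-/- cells (adjusted p = 0.00086), the latter being -0.04 with median-ratio scaling, where the adjusted p was 0.57 in a range of 0.00048 to 0.57 over 16 settings. The interaction was 0.31 (adjusted p = 0.015). The higher fibroblast, neutrophil, endothelial, mast cell and lymphocyte sums of the Nlrp3-/- libraries stand beside the receptor differences too. The megakaryocyte or platelet sum was higher without stimulation but lower with it, at 0.436 of the wild-type sum. The part of these cell types was not tested.

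Of the SMADs, Smad3 (ENSMUSG00000032402), which carries the receptor signal to the nucleus, was at 3.16, 3.60 and 3.19 FPKM in untreated and at 0.894, 1.05 and 0.831 FPKM in stimulated wild-type cells. In Nlrp3-/- cells it was at 10.9, 11.6 and 11.2 FPKM without treatment and at 3.40, 3.79 and 3.65 FPKM after LPS and ATP. Untreated Nlrp3-/- libraries were the highest and stimulated wild-type libraries the lowest, while the stimulated Nlrp3-/- and untreated wild-type libraries shared a range. The fall with LPS and ATP was -1.16 in wild-type (SE 0.0611, adjusted p = 9.8e-09) and -1.41 in Nlrp3-/- cells (adjusted p = 2.5e-09), and the wild-type value was -0.98, under the fold limit, with median-ratio scaling. Nlrp3-/- cells were higher by 1.50 without (adjusted p = 4.5e-09) and 1.26 with stimulation (adjusted p = 2.6e-08). The interaction of -0.24 did not pass (adjusted p = 0.060, in a range of 0.026 to 0.49 over 16 settings) and turned to 0.13 with a pseudocount of 0.1. It passed with the replicate block, without replicate 2 of the untreated wild-type libraries (-0.29) and without replicate 3 of the stimulated wild-type libraries (-0.28).

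Smad6 (ENSMUSG00000036867), an inhibitory SMAD best known for limiting BMP signals, moved the other way under LPS and ATP. Its values were 0.366, 0.479 and 0.496 FPKM in untreated and 2.49, 2.34 and 2.23 FPKM in stimulated wild-type cells, and 1.89, 1.63 and 1.82 FPKM in untreated and 4.24, 4.00 and 4.28 FPKM in stimulated Nlrp3-/- cells. Stimulated libraries were above untreated ones within each genotype, and Nlrp3-/- libraries above wild-type ones within each state, without overlap. The rise was 1.21 in wild-type cells (SE 0.0593, adjusted p = 5.3e-09) and 0.90 in Nlrp3-/- cells (adjusted p = 1.0e-07), the latter under the fold limit but 1.08 with median-ratio scaling and 1.19 with a pseudocount of 0.1. Between genotypes it was 0.94 without (adjusted p = 1.6e-07) and 0.63 with stimulation (adjusted p = 5.6e-06), the former reaching 1.79 with a pseudocount of 0.1. The interaction was -0.32 (adjusted p = 0.016, in a range of 0.00071 to 0.043 over 16 settings), and -0.99 with a pseudocount of 0.1. The ratio of Smad6 to Smad3 FPKM was 0.116 to 0.156 in untreated wild-type and 0.140 to 0.174 in untreated Nlrp3-/- libraries, ranges that overlapped, and 2.24 to 2.79 and 1.06 to 1.25 after LPS and ATP.

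Smad7 (ENSMUSG00000025880), the inhibitory SMAD that acts on TGF-beta receptors, was at 1.17, 0.919 and 0.927 FPKM in untreated and at 1.76, 0.590 and 2.38 FPKM in stimulated wild-type cells. In Nlrp3-/- cells it was at 2.41, 2.45 and 2.42 FPKM without treatment and at 4.08, 4.29 and 4.09 FPKM after LPS and ATP. The stimulated wild-type libraries spread around the untreated ones, with replicate 2 below all of them, whereas each Nlrp3-/- group was tight and above both wild-type groups. In wild-type cells the change of 0.29 did not pass (95% interval -0.16 to 0.75, adjusted p = 0.21). It depended on single stimulated libraries: it was 0.61 without replicate 2, 0.21 without replicate 1 and 0.064 without replicate 3, and the adjusted p ranged from 0.00013 to 0.75 over 16 settings. The other differences were 0.59 with LPS and ATP in Nlrp3-/- cells (adjusted p = 0.023), 0.77 between untreated genotypes (adjusted p = 0.0095) and 1.07 between stimulated genotypes (adjusted p = 0.0013). The adjusted p of the 0.59 ranged from 7.2e-05 to 0.076 over 16 settings, so it did not pass in all of them, and the 0.77 became 1.20, past the fold limit, with a pseudocount of 0.1. The call between stimulated genotypes rested on replicate 2 of the stimulated wild-type libraries: without it the difference was 0.76, with an adjusted p of 7.0e-05 in a range of 7.0e-05 to 0.0055 over 16 settings. With median-ratio scaling it was 0.98, under the fold limit, and the wild-type change of 0.29 was 0.47. As for the ligands, the Nlrp3-/- libraries with more Smad3, Smad6 and Smad7 were those with the higher fibroblast and neutrophil sums, whose part was not tested.

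Patterns over the 4 groups like those of the called members were sought among the tested genes outside the lists, as the smallest root mean square difference of centred log2(FPKM + 1) values over the 12 libraries. Closest to Tgfbr2 were Fam213b (0.0770), Man2a2 (0.0877) and Sulf2 (0.102). Nearest Tgfb2 were Myh10 (0.0868), Smo (0.0897) and Fcna (0.0900). For Tgfb3 they were Nid2 (0.129), Elovl6 (0.136) and Col8a1 (0.165), and for Smad3 Elovl6 (0.119), Mtss1l (0.128) and Nid2 (0.129), so a pair of genes served for both. Tgfbr3 was nearest to Tmem176a (0.120), Maged1 (0.135) and Dlg5 (0.136), and Smad6 to Ackr3 (0.127), C1ra (0.131) and Ext1 (0.134). Smad7 had Zfp131 (0.212), Ecscr (0.224) and Ptpn13 (0.229). Inhba had no close match, its nearest genes being Serpinb2 (0.445), Upp1 (0.460) and Bcl2a1a (0.465). Serpinb2 averaged 0.911 FPKM in untreated and 51.6 FPKM in stimulated wild-type cells, and 3.04 and 41.5 FPKM in Nlrp3-/- cells, which is the same order of groups as for Inhba.

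The rest of the pathway was described from 8 lists of 62 genes, 52 of them tested. With LPS and ATP, 7 were called higher and 3 lower in wild-type cells (beside 8.25% and 11.2% of all tested genes) and 7 higher and 4 lower in Nlrp3-/- cells (beside 6.64% and 8.21%), with medians of 0.13 and -0.15, beside -0.25 and -0.24. Between genotypes 12 were called higher without and 12 with stimulation (beside 6.02% and 4.48%) and 0 lower in either (beside 0.689% and 0.570%), with medians of 0.40 and 0.36, beside 0.09 and 0.11. For the interaction 0 were called higher and 1 lower (beside 0.721% and 1.43%), with a median of -0.07, beside 0.02. Median-ratio scaling, under which 51 were tested, gave 11 higher and 2 lower in wild-type cells, 10 higher and 1 lower in Nlrp3-/- cells, and 10 and 8 higher between genotypes without and with stimulation. Of 12551 genes tested under that scaling, 1394 were higher and 881 lower, 1081 and 609, 612 and 122, and 460 and 114 in the same order of comparisons. The calls it added were Ltbp1 (1.08, from 0.86), Fstl3 (1.19, from 0.97), Pmepa1 (1.12, from 0.89) and Tgif1 (1.13, from 0.83) in wild-type cells and Acvr1b (1.25, from 0.99), Skil (1.13, from 0.94) and Acvrl1 (1.08, from 0.84) in Nlrp3-/- cells, of which Tgif1 and Acvrl1 were named after their values were seen. The lists of other SMADs and SMAD partners (6 of 7 tested) and of the TAK1 branch (4 of 4 tested) held no call in any comparison by limma; by the adjusted p alone, LPS and ATP gave 1 higher and 2 lower in wild-type (beside 23.3% and 53.1% of all tested genes) and 1 higher and 3 lower in Nlrp3-/- cells (beside 20.6% and 53.8%) in the former, and 0 higher and 2 lower in each genotype in the latter. Between genotypes 4 of the 6 other SMADs and partners were higher in Nlrp3-/- cells by the adjusted p alone in each state and 0 lower, and of the TAK1 branch 1 of 4 was higher and 0 lower in each state, beside 33.3% of all tested genes higher and 14.5% lower without and 35.9% and 12.6% with stimulation. For the interaction 1 was higher and 1 lower in the former and 0 higher and 1 lower in the latter, beside 14.7% and 13.0%. The SMAD partner Zfyve9 is among the 4 higher between genotypes in each state and is the 1 lower for the interaction. It lay at 0.717 to 1.01 FPKM in wild-type and 1.34 to 2.43 FPKM in Nlrp3-/- libraries. Zfyve9 thus passed the filter on low values only through its Nlrp3-/- libraries, so its results are no more than a description. Smad5, chosen after its values were seen, was 0.97 higher in untreated Nlrp3-/- cells, and 1.12, 1.11 and 1.01 without replicate 2 or 3 of the untreated wild-type or replicate 1 of the untreated Nlrp3-/- libraries, where it was called. Replicate 1 of the untreated wild-type libraries was low for Smad5, at 1.40 FPKM beside 3.31 and 3.25, and without it the difference was 0.69.

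Genes of latency and activation control how much stored TGF-beta is set free, and 10 of 12 were tested. With LPS and ATP 1 was called higher and 2 lower in wild-type cells (beside 8.25% and 11.2%) and 3 higher and 2 lower in Nlrp3-/- cells (beside 6.64% and 8.21%), with medians of 0.26 and 0.19, beside -0.25 and -0.24 for all tested genes. Nrros, which tethers latent TGF-beta1 on myeloid cells, was at 74.5, 73.7 and 77.4 FPKM in untreated and at 4.42, 13.5 and 14.5 FPKM in stimulated wild-type cells, and at 58.4, 55.3 and 60.6 FPKM and 12.6, 12.7 and 13.0 FPKM in Nlrp3-/- cells. It was low in all stimulated libraries, lowest in replicate 1 of the wild-type ones, and fell by log2 changes of -2.83 (adjusted p = 5.1e-06) and -2.10 (adjusted p = 7.0e-05). Itgb5, a partner of the alpha v integrin that binds the latent complex, also fell, with changes of -1.89 and -1.12, and Itgb8, another partner, rose by 1.38 and 1.17 from levels of at most 0.277 FPKM. Itgb8 passed the filter on low values only through its stimulated libraries, so its calls, which are counted above, are no more than a description. Between genotypes 4 were called higher without and 5 with stimulation (beside 6.02% and 4.48%), with medians of 0.73 and 0.90, beside 0.09 and 0.11. Lrrc32, which encodes GARP, the tether on regulatory T cells and platelets, was at 0.944, 1.10 and 0.870 FPKM in untreated wild-type and 6.45, 7.86 and 7.76 FPKM in untreated Nlrp3-/- cells, and at 1.55, 1.54 and 1.37 FPKM against 9.72, 9.94 and 8.67 FPKM after LPS and ATP. Nlrp3-/- libraries were higher throughout, by 2.08 without (adjusted p = 2.5e-09) and 2.07 with stimulation (adjusted p = 3.8e-09). The latent TGF-beta binding proteins followed: Ltbp1 was higher by 1.22 and 1.44, Ltbp2 by 0.98 and 1.45 and Ltbp3 by 1.01 and 1.07, the 0.98 being under the fold limit but 1.01, and called, without replicate 1 of the untreated Nlrp3-/- libraries. Thbs1, an activator of the latent complex, was higher by 1.37 in untreated cells. Leaving out a library ended the call of Ltbp2 with LPS and ATP in Nlrp3-/- cells (1.01, and 0.97 without replicate 1 of the untreated and 0.99 without replicate 2 of the stimulated Nlrp3-/- libraries) and of Ltbp3 between untreated genotypes (0.98 without replicate 1 of the wild-type and 0.96 without replicate 2 of the Nlrp3-/- libraries). Median-ratio scaling put Ltbp3 (0.87 and 0.96) and the Itgb5 changes of 1.06 between stimulated genotypes (0.89) and of -1.12 (-0.84) under the limit.

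Of the activin subunits and antagonists, 3 of 4 were tested. Fstl3, a secreted protein that binds and blocks activin, was at 0.985, 0.884 and 1.17 FPKM in untreated and 3.15, 2.61 and 3.05 FPKM in stimulated wild-type cells, and at 4.17, 3.75 and 3.26 FPKM and 9.54, 9.58 and 8.58 FPKM in Nlrp3-/- cells. It rose with LPS and ATP without overlap in both genotypes and was higher in Nlrp3-/- cells, by 1.23 (adjusted p = 3.7e-07) and 1.38 (adjusted p = 1.8e-07). The rise was 1.12 in Nlrp3-/- cells (adjusted p = 3.7e-07) and 0.97 in wild-type cells, where it reached 1.02 without replicate 3 of the untreated and 1.03 without replicate 2 of the stimulated libraries. The interaction of 0.15 did not pass (adjusted p = 0.41), unlike that of Inhba. Of the BMP and GDF ligands, 4 of 6 were tested. Bmp6 alone was called, in both genotype comparisons, beside 6.02% and 4.48% of all tested genes called higher. It was higher in Nlrp3-/- cells by 1.01 without and 1.17 with stimulation. The former fell to 0.92 without replicate 3 of the untreated wild-type libraries, to just under 1 without replicate 3 of the untreated Nlrp3-/- ones, and to 0.89 with median-ratio scaling.

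Among other receptors of the family, 9 of 12 were tested. Eng, the co-receptor endoglin, was at 9.99, 11.1 and 11.4 FPKM in untreated and 29.5, 28.5 and 30.2 FPKM in stimulated wild-type cells, and at 9.78, 9.95 and 10.6 FPKM and 25.1, 25.2 and 24.4 FPKM in Nlrp3-/- cells. It was high in all stimulated libraries, with log2 fold changes of 1.36 (adjusted p = 3.7e-10) and 1.22 (adjusted p = 1.4e-09), the opposite direction to Tgfbr2. Acvr1b, the activin type I receptor, rose by 1.05 in wild-type cells (0.98 without replicate 1 of the untreated libraries) and by 0.99 in Nlrp3-/- cells, just under the limit. The latter was 1.01 without replicate 1 or replicate 3 of the untreated and 1.03 without replicate 1 of the stimulated Nlrp3-/- libraries. Bmpr1a, a BMP type I receptor, was higher in Nlrp3-/- cells by 1.23 without and 1.01 with stimulation, the latter 0.99 without replicate 1 of the stimulated wild-type libraries, under 1 without replicate 3 of the stimulated Nlrp3-/- ones and 0.89 with median-ratio scaling.

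Of the SMAD repressors and feedback genes, 8 of 9 were tested and limma called 1 higher with LPS and ATP in wild-type cells (beside 8.25%), 1 lower in Nlrp3-/- cells (beside 8.21%) and 1 higher between genotypes in each state (beside 6.02% and 4.48%). Pmepa1, a TGF-beta-induced inhibitor of SMAD signalling, was at 1.13, 1.29 and 1.28 FPKM in untreated and 3.08, 3.09 and 3.23 FPKM in stimulated wild-type cells, and at 7.43, 7.99 and 7.40 FPKM and 11.9, 11.8 and 12.1 FPKM in Nlrp3-/- cells. Every Nlrp3-/- library was above every wild-type library, with differences of 1.95 (adjusted p = 6.2e-11) and 1.65 (adjusted p = 4.0e-10). Skil, a SMAD co-repressor, rose by 1.14 in wild-type cells and by 0.94 in Nlrp3-/- cells, the latter under the limit, with an interaction of -0.20 (adjusted p = 0.089). Ski, its relative, was called lower in Nlrp3-/- cells (-1.07), but this rested on replicate 2 of the stimulated libraries, at 7.91 FPKM beside 15.1 and 15.8, and was -0.77 without it and -0.80 with median-ratio scaling.

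SMAD response genes, known as transcriptional targets of TGF-beta or BMP signals, were described from the 8 of the planned list that are reported here, all of them tested. With LPS and ATP 3 were called higher and 1 lower in wild-type cells (beside 8.25% and 11.2% of all tested genes) and 2 higher and 1 lower in Nlrp3-/- cells (beside 6.64% and 8.21%), with medians of 0.36 and -0.27, beside -0.25 and -0.24, so the second was near that of all genes. Between genotypes 4 were higher without and 3 with stimulation (beside 6.02% and 4.48%), with medians of 1.03 and 0.67, beside 0.09 and 0.11. Ccn2, listed in the table under its older symbol Ctgf and encoding a matricellular protein, was at 4.78, 4.78 and 4.95 FPKM in untreated and 18.9, 21.8 and 20.2 FPKM in stimulated wild-type cells, and at 26.9, 28.6 and 28.9 FPKM and 43.7, 40.1 and 43.1 FPKM in Nlrp3-/- cells. All Nlrp3-/- libraries were above all wild-type ones. Ccn2 rose by 1.87 in wild-type (adjusted p = 4.2e-11) and 0.57 in Nlrp3-/- cells (adjusted p = 1.8e-06), differed between genotypes by 2.32 and 1.02, and had an interaction of -1.30 (adjusted p = 6.6e-07). The difference of 1.02 was 0.98 without replicate 1 of the stimulated wild-type libraries, just under 1 without replicate 1 of the stimulated Nlrp3-/- ones and 0.86 with median-ratio scaling.

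Tgfbi, a secreted matrix protein named for its induction by TGF-beta, was the most abundant of the response genes in untreated cells. It rose from 46.7, 49.2 and 47.5 FPKM to 146, 148 and 141 FPKM in wild-type cells and from 77.5, 77.3 and 75.4 FPKM to 196, 197 and 196 FPKM in Nlrp3-/- cells. The groups did not overlap, and the log2 fold changes were 1.58 (adjusted p = 8.1e-13) and 1.34 (adjusted p = 3.9e-12). Snai1, a transcription factor of epithelial to mesenchymal transition, rose by 1.32 in both genotypes and was higher in Nlrp3-/- cells by 1.67 in both states. Klf10, an early TGF-beta-induced factor, fell, with changes of -1.06 and -1.05, or -0.80 in both genotypes with median-ratio scaling. Cdkn2b, a cell cycle inhibitor, was higher in Nlrp3-/- cells by 1.99 and 1.21, and Id3, a BMP target, by 1.38 without stimulation. The fibroblast sum, led by Col1a1, was also higher in Nlrp3-/- cells, and the part of other cell types in the levels of the response genes was not tested.

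**Figure D5:**
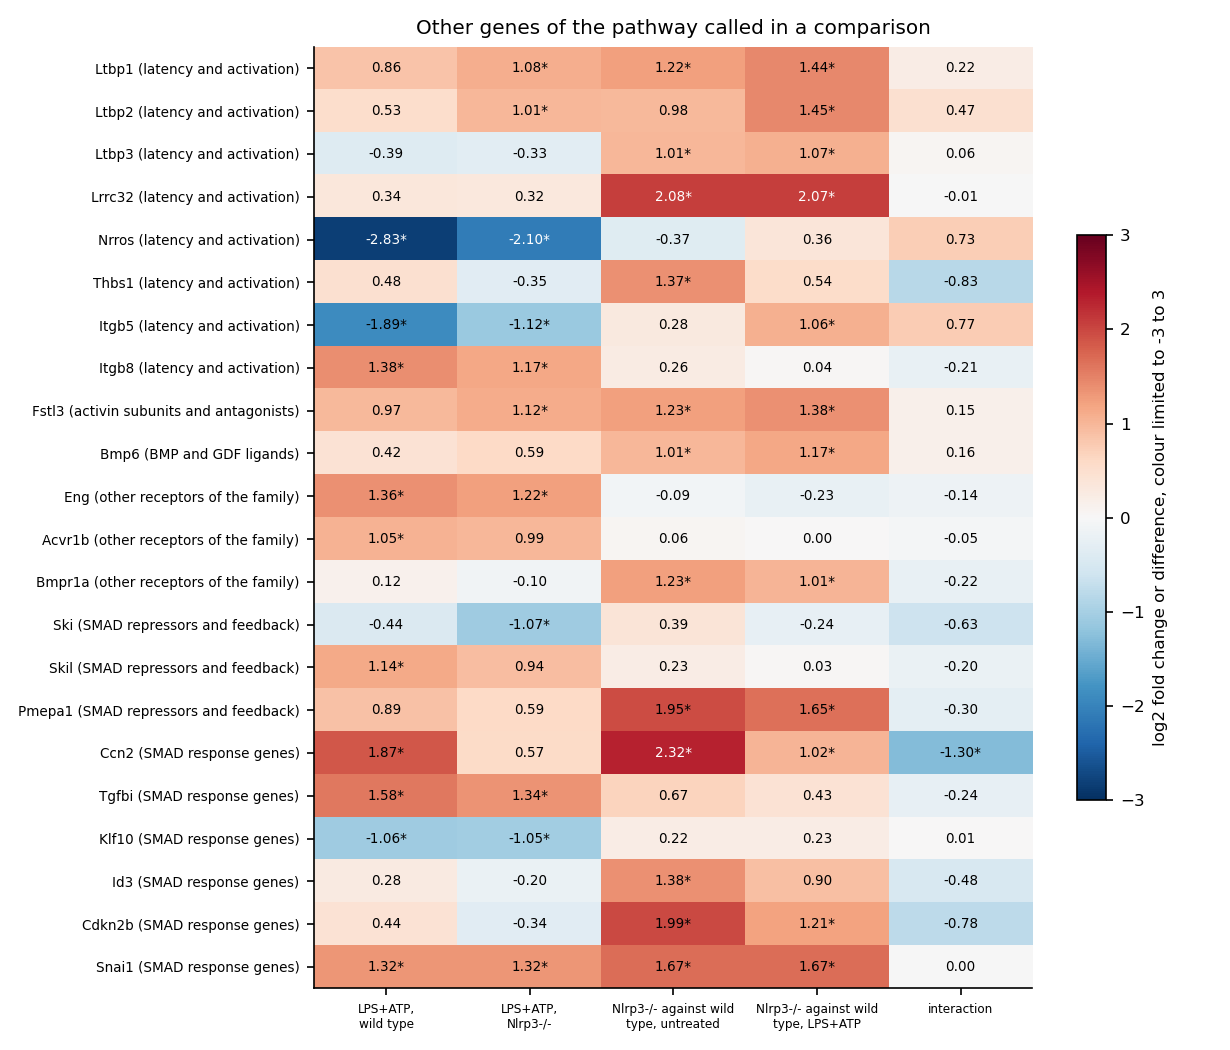
Log2 fold changes (and log2 differences for the interaction) of the 22 other pathway genes called in at least 1 comparison, with the value in each cell and an asterisk where the gene was called; red is higher and blue lower. Nrros has the lowest value, -2.83 with LPS and ATP in wild-type cells, and Ccn2 (-1.30) alone carries an asterisk in the interaction column.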

How the data were processed

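RNA-seq of 12 BMDM libraries (total RNA by Trizol, TruSeq kit) was deposited by the authors as a table of FPKM values, which was used without further scaling. The submitters' notes name GRCm39 and DESeq2 1.24.0, while the aligner and annotation are not given in the sources used here. Absolute depth is unknown; from the steps between low values, relative depth ran from 1.0 to 1.216, and FPKM sums from 283278 to 299393. Strand is not stated, so reads of genes overlapping Tgfb2, Tgfb3, Inhba and Tgfbr3 cannot be told apart from theirs. Genes reaching 1 FPKM in 3 or more libraries were fitted as log2(FPKM + 1) in limma 3.58.1 (R 4.3.3) with a mean-variance trend, 4 group means and 5 contrasts. Calls required a log2 change of 1 or more in size together with an adjusted p (Benjamini-Hochberg) under 0.05. Tables and figures were made in Python 3.11.15 with pandas 2.3.3, matplotlib 3.10.9, scipy 1.17.1 and numpy 2.4.6. Alternatives were a pseudocount of 0.1, no filter, median-ratio scaling, a replicate block, no fold limit and leaving out each library. The text names all 10 genes, and each other pathway gene called in at least 1 comparison. The 10 genes and the lists were chosen with earlier results of these data known. Of the planned list of SMAD response genes, 1 gene is not reported here.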

Additional observations from a re-analysis of the deposited data

Results flagged for a closer look

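The interaction of genotype and stimulation, tested in limma, was called lower for 1 of the 10 genes and 1 of the 52 tested genes of the other pathway lists. Of all tested genes, 0.721% were called higher and 1.43% lower, so 1 of 52 is near that share. For a called gene, the change with LPS and ATP differed between the groups of wild-type and Nlrp3-/- cells. Inhba had an interaction of -2.83 (adjusted p = 3.5e-10), with a change of 5.90 in wild-type and 3.08 in Nlrp3-/- cells. Ccn2 had -1.30 (adjusted p = 6.6e-07), with 1.87 and 0.57. Both rose in each genotype, rose less in Nlrp3-/- cells and stood higher there before stimulation, by 2.04 and 2.32. Outside these lists the interaction was also called lower for all 4 megakaryocyte or platelet markers (median -1.84) and for Il1b (-1.46). Of the 7 tested neutrophil markers it was called lower for 2, Mpo (-3.58) and Elane (-2.72). By the adjusted p alone 5 of these 7 were lower and 0 higher, beside 13.0% and 14.7% of all tested genes. The part of other cell types in the Inhba and Ccn2 terms was not tested.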

How the results depend on the processing

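Of 600 log2 changes of the 10 genes with 1 library left out, 596 kept their direction and side of the call, 1 gained a call, 1 lost it and 2 turned direction. Of 200 under the other settings, 190 kept both, 5 gained a call, 2 lost it and 3 turned direction. The changes of direction were Tgfbr2 between untreated genotypes, at -0.12 with median-ratio scaling and from -0.023 (without replicate 2 of the untreated Nlrp3-/- libraries) to 0.045 over the libraries left out; the interactions of Tgfb3 (0.46) and Smad3 (0.13) with a pseudocount of 0.1; and the interaction of Smad7, from -0.019 (without replicate 2 of the stimulated wild-type libraries) to 0.53. None of these 4 differences was called, and the cause was not tested.

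Without the fold limit, 9, 10, 9, 10 and 6 of the 10 genes passed in LPS and ATP in wild-type cells, in Nlrp3-/- cells, genotype without and with stimulation, and the interaction. In that order 36, 42, 37, 31 and 16 other pathway genes and 9641, 9383, 6035, 6124 and 3494 of all tested genes passed. These rises follow from the wider rule. With a pseudocount of 0.1, all-gene counts were 3702, 2847, 1428, 1406 and 634. The 10 genes then gave 5, 6, 7, 5 and 1 calls, and other pathway genes came to 16, 15, 21, 16 and 3. A smaller pseudocount compresses low values less.

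Median-ratio scaling moved the all-gene medians by 0.25, 0.23, -0.11 and -0.14 in the first 4 comparisons. It gave 1394 genes higher and 881 lower with LPS and ATP in wild-type cells, beside 1041 and 1411, and 1081 and 609 in Nlrp3-/- cells, beside 838 and 1036. The 10 genes then gave 4, 5, 5, 4 and 1 calls, beside 2275, 1690, 734, 574 and 278 of 12551 tested genes. Leaving out a library gave 4 to 5 calls for stimulation in Nlrp3-/- cells and between stimulated genotypes, beside 1812 to 1875 and 620 to 639 calls among all genes.

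A block for replicate number left the counts of the 10 genes at 5, 4, 5, 5 and 1, with 2453, 1876, 847, 636 and 268 calls among all genes. Libraries with the same number correlated at -0.0565 to 0.0528 over 18 pairs once group means were removed, so they shared a number and no visible pairing. Relative depth spanned only 1.0 to 1.216, but absolute depth is not known, so the precision of low values such as Smad6 in untreated wild-type cells cannot be given.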
